A study of Mus musculus with 12 samples.

Results

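The seminal vesicle secretory (Svs), prostate and testis expressed (Pate) and whey acidic protein domain (Wfdc) genes were followed in medullary thymic epithelial cells (mTECs) with and without Aire or Brg1. Members were taken by name, as every gene whose symbol is Svs, Pate or Wfdc followed by a digit among probe sets with 1 gene symbol. The choice was made with earlier results of these data known, so shares of members set beside those of all genes are descriptive. This gave 37 of 22154 measured genes, of which 7 were Svs, 12 Pate and 18 Wfdc genes, each read through the probe set with the highest mean over the 12 arrays. A probe set annotated to Pate4 and Pate2 together was left out by this rule.

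RNA was hybridised to 12 single-channel Affymetrix mouse gene arrays. The mice were C57BL/6 animals aged 4 weeks, and epithelial cells of the thymic medulla were sorted from digested thymus by surface staining. Cells with much MHC class II, called mTEChi, were kept apart from those with little, called mTEClo. Groups were named Aire+/+, Aire-/-, Brg1+/+ and Brg1-/-, with 2 arrays for each mTEChi group and 1 array for each mTEClo group. Aire is the transcriptional regulator that lets mTECs express genes of peripheral tissues, and Brg1 is the motor subunit of SWI/SNF, a complex that remodels chromatin. The alleles behind each genotype, the cells in which they were deleted and the sex of the mice are not given in the sources used here. Nothing in the labels says that replicates came from separate animals, so p-values measure the spread between these arrays, which may be technical.

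Seminal vesicles, prostate and epididymis secrete a small set of proteins in very large amounts, and some of the genes studied here belong to such sets. Svs2 to Svs6 encode secreted proteins of rodent seminal fluid, some of which are crosslinked by transglutaminase into the copulatory plug, while Svs1 encodes an unrelated amine oxidase-like protein. Pate genes encode small cysteine-rich proteins of the Ly6/uPAR fold made mainly in the epididymis and accessory glands. Wfdc genes encode proteins with whey acidic protein domains, many of them protease inhibitors or antibacterial proteins, and several are expressed in other epithelia or in leukocytes. In mice lacking Aire, SVS2 has been described as a target of autoimmunity against the male accessory glands.

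The genes lie in clusters: in the order of RefSeq genes (GRCm38.p6), 32 of the 37 members have another member as a direct protein-coding neighbour. The Svs genes other than Svs1 form 1 run, in the order Svs2, Svs3b, Svs4, Svs3a, Svs6 and Svs5, flanked by Wfdc15b on one side and Slpi on the other. Pate12, Pate11, Pate9, Pate8 and Pate14 also follow each other directly. The 100 bases before the RefSeq gene start (GRCm38.p6) are shown for the members on which the results below turn, and for the close copies Svs3b and Svs6, to set neighbours that are near copies side by side. Capitals mark the motif TATAAA, and each sequence runs 5′ to 3′ on the strand of its gene.
Svs3a (chr2:164289167-164289266, + strand): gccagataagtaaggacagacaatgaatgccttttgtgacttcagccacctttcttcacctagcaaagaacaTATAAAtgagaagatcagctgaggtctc
Svs3b (chr2:164256644-164256743, - strand): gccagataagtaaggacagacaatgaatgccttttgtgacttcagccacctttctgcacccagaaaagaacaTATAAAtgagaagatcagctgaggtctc
Svs4 (chr2:164278308-164278407, - strand): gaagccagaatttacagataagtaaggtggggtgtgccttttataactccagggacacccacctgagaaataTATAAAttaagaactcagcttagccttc
Svs5 (chr2:164332665-164332764, + strand): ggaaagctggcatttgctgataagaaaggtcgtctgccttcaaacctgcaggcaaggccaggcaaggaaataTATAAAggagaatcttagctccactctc
Svs6 (chr2:164316651-164316750, + strand): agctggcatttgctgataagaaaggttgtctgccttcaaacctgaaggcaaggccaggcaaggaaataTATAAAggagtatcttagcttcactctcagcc
Pate12 (chr9:36431729-36431828, + strand): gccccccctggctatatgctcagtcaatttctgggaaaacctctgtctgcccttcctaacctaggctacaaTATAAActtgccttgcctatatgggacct
Pate11 (chr9:36475483-36475582, + strand): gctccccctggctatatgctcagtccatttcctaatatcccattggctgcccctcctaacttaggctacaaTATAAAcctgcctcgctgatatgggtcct
Pate14 (chr9:36638603-36638702, - strand): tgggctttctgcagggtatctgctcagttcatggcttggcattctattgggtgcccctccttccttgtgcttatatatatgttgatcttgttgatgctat

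A TATAAA on the gene's strand with its first base between -40 and -20, where the base before the gene start is -1, was found upstream of 8 of the 32 members with a promoter entry (25.0%), against 600 of 27025 genes (2.22%). It was found in 5 of 7 Svs genes, first base at -28 in Svs3a, Svs3b, Svs4 and Svs5 and at -32 in Svs6. In the Pate family it was found in 2 of 11 genes, Pate12 and Pate11, both at -29, and in the Wfdc family in 1 of 14, Wfdc18, at -31. On either strand in the whole 250 bases upstream, TATAAA occurred in 37.5% of the members and in 13.0% of all genes. The members had a median of 2 CG dinucleotides in those 250 bases, with medians of 1 for Svs, 1 for Pate and 4.5 for Wfdc genes, against 6 over all genes. Over these 250 bases Pate12 and Pate11 were 87.1% identical in a global alignment, Svs3a and Svs3b 97.6% and Svs5 and Svs6 93.3%, while Pate12 and Pate14 were 53.7% identical. A match to these letters is a description of the window, and the arrays carry no measurement of binding there.

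The deposited intensities were turned into log2 values, so a difference of 1 is a doubling of intensity. Array medians lay between 5.07 and 5.32, and precision is limited by how few arrays there are. Among the mTEC markers, Krt14, a medullary keratin, read 10.57 to 12.10 over the 12 arrays. Epcam, the epithelial adhesion molecule of the sort, read 8.41 to 9.29. Not all were bright on every array: Cd86 read 4.75 to 5.72 in mTEClo. For Aire itself, the mTEChi arrays labelled Aire-/- read 9.01 and 9.73, above the 8.04 and 8.80 of the wild type of that line. Its position relative to the deleted part of the gene is not known here, so it does not check the labels, and every direction below rests on the labels. Tests were made with limma across all 22154 genes, with a call at a Benjamini-Hochberg adjusted p under 0.05. Of 11 measured mTEC markers 3 passed as higher in wild-type mTEChi than in mTEClo, and 2 differed below 0. The MHC class II genes H2-Aa and H2-Ab1 differed by 1.00 and 0.35 without passing (limma adjusted p = 0.345 and 0.571).

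**Figure D1:**
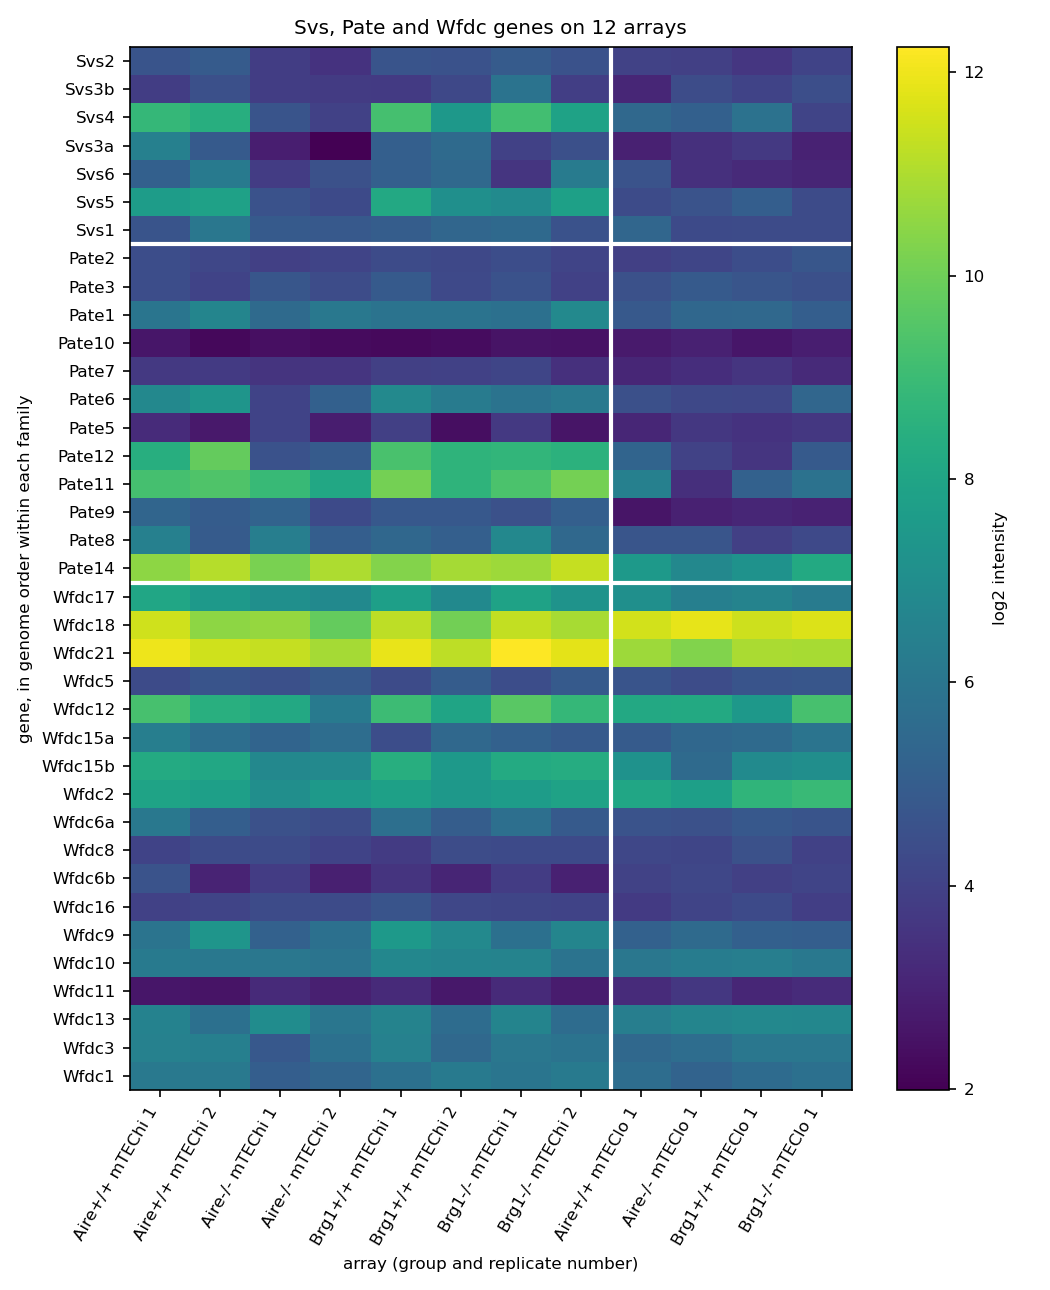
Log2 intensity (colour) of the 37 Svs, Pate and Wfdc genes (rows, in genome order within each family) on each of the 12 arrays (columns, by group and replicate number). Svs4, Svs5 and Pate12 are bright in Aire+/+, Brg1+/+ and Brg1-/- mTEChi and read lower in the arrays labelled Aire-/- and in mTEClo. Pate14 is bright on all 8 mTEChi arrays, between 10.19 and 11.34.

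The first comparison asked which members depended on Aire in mTEChi. In the arrays labelled Aire-/-, Svs4, Svs5 and Pate12 fell by between 10.1-fold and 20.7-fold, and no member rose. Svs4, a small seminal vesicle protein (probe set 17394147), read 8.84 and 8.42 in wild-type mTEChi of this line and 4.64 and 3.96 without Aire. Both groups were far apart, with a log2 difference of -4.33 (SE 0.63, n = 2 and 2, limma adjusted p = 0.0318), or 20.1-fold. Svs5, a seminal vesicle protein related to semenogelins (probe set 17379395), read 7.66 and 7.88 with Aire and 4.56 and 4.30 without it, a difference of -3.34 (SE 0.434, limma adjusted p = 0.0183). Pate12, a Ly6/uPAR-type protein gene (probe set 17515988), read 8.44 and 9.81 with Aire and 4.57 and 4.94 without it, a difference of -4.37 (SE 0.459, limma adjusted p = 0.0076). In each of these genes both Aire-/- arrays lay below both Aire+/+ arrays, and the differences between arrays of the same number were alike: -4.20 and -4.46 for Svs4, -3.10 and -3.58 for Svs5, and -3.87 and -4.87 for Pate12.

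These 3 members are 8.11% of the 37, where 171 of 22154 genes (0.772%) were lower with the same test and 5 (0.0226%) were higher (0.794% in either direction). At an unadjusted p under 0.05 there were 11 members (29.7%), against 5.46% of all genes. The calls rest on few arrays. Without Aire+/+ replicate 1 only Pate12 passed, without Aire+/+ replicate 2 Pate12 and Svs3a passed, and without either Aire-/- replicate 0 members passed. In those fits Pate12 differed by -5.05 to -3.68, Svs4 by -4.67 to -3.99 and Svs5 by -3.47 to -3.21. With 16 added to each intensity before the log2, only Pate12 passed. With the replicate number within each line as a block 7 members passed, these 3 with Svs3a, Pate6, Wfdc12 and Wfdc15b, and the calls over all genes rose from 176 to 531. In bulk arrays, fewer cells that express a gene and less RNA per cell cannot be told apart.

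The other Svs genes gave a range of differences. Svs3a, a transglutaminase substrate of the seminal plug, read 6.45 and 4.89 with Aire and 2.85 and 1.99 without it, a difference of -3.25 (SE 0.538, limma adjusted p = 0.0503) that missed the threshold by little. It passed when arrays were centred on their medians and after quantile normalization (limma adjusted p = 0.0429 and 0.0405). It also passed with the mean of all probe sets (0.0483), but this gene has 1 probe set and its difference stayed at -3.25. It missed the threshold with 16 added to each intensity, in a fit of the compared arrays only and with a trended, robust prior (0.21, 0.137 and 0.0587). Its Aire-/- readings lay under 3.66, the 10% quantile of the gene means. Its near copy Svs3b read 3.84 and 4.51 against 3.87 and 3.77, with overlapping arrays and a difference of -0.35 (95% interval -1.76 to 1.05). Svs6 read 5.13 and 6.23 against 3.82 and 4.55, a difference of -1.49 (SE 0.809, limma adjusted p = 1). The main plug protein Svs2 read 4.65 and 4.94 with Aire and 3.87 and 3.48 without it, a difference of -1.12 (SE 0.269, limma adjusted p = 0.206). Svs1 differed by -0.49 (SE 0.493), with overlapping arrays. All 7 Svs differences were below 0, with a median of -1.49 against 0.06 over all genes. Probe sequences were not analysed here, so a probe set of Svs3a or Svs3b may read both copies, and the same holds for Svs5 and Svs6 and for Pate12 and Pate11.

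Of the Pate genes, Pate12 alone passed. Pate6 had the next largest difference: it read 6.76 and 7.35 with Aire and 4.06 and 5.14 without it, -2.46 (SE 0.417, limma adjusted p = 0.0567). It passed when the genes tested were limited to those with a mean of at least 5 (limma adjusted p = 0.0455). It missed the threshold after centring, after quantile normalization and in a fit of the compared arrays only (0.0738, 0.0799 and 0.14). Pate11, the neighbour of Pate12, read 9.21 and 9.42 with Aire and 8.89 and 8.13 without it. Its difference was -0.81 (95% interval -2.0 to 0.39, limma adjusted p = 1), against an interval of -5.44 to -3.30 for Pate12; the difference between these genes was not tested. Pate14 read 10.51 and 11.09 with Aire and 10.19 and 10.97 without it, with overlapping arrays and a difference of -0.22 (95% interval -1.13 to 0.69). Pate9 differed by -0.40 (95% interval -1.27 to 0.47). The remaining 7 Pate genes differed by between -0.51 (Pate1) and 0.46 (Pate5), and the family median was -0.26.

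None of the 18 Wfdc genes passed. The largest differences were those of Wfdc12 and Wfdc15b, which encode antibacterial WAP proteins, and Wfdc9. Wfdc12 read 9.28 and 8.48 with Aire and 8.17 and 6.19 without it, a difference of -1.70 (SE 0.682, limma adjusted p = 0.822). Leaving out 1 array moved it between -2.69 (without Aire-/- replicate 1) and -0.71 (without Aire-/- replicate 2). Its other probe set lay between 2.67 and 3.68 on all arrays, and the mean of both gave -0.67. Wfdc15b, the gene next to Svs2, read 8.26 and 8.14 against 6.79 and 6.80, a difference of -1.41 (SE 0.319, limma adjusted p = 0.17) with tight replicates on both sides. Wfdc9 read 5.93 and 7.36 against 5.19 and 5.79, -1.16 (SE 0.544, limma adjusted p = 1), and between -1.87 (without Aire+/+ replicate 1) and -0.44 (without Aire+/+ replicate 2) with 1 array left out. The other 15 genes differed by between -1.15 (Wfdc3) and 0.48 (Wfdc11), among them Wfdc2, an epithelial secreted protein, by -0.56 and Wfdc17, known from macrophages, by -0.81. The family median was -0.61.

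Over all 37 members the median difference was -0.56, with 30 below 0, against a median of 0.06 and 40.7% below 0 over all genes. Both Aire-/- arrays lay below both Aire+/+ arrays in 21 members (56.8%, against 11.6% of all genes) and above them in 2 (5.41%, against 15.9%). Markers of other cells were summed on the same arrays. The summed intensity of 9 thymocyte genes was 490 and 1260 in Aire+/+ and 488 and 996 in Aire-/- mTEChi, and that of 7 dendritic cell, macrophage and B cell genes 882 and 1250 against 752 and 1230, both with overlapping arrays. The sum of 6 cortical epithelial genes was 1640 and 1590 against 1860 and 1900, and that of 7 fibroblast and endothelial genes 280 and 320 against 344 and 392. Both of these sums were higher on both Aire-/- arrays, and their part in the result was not tested. Gene by gene, 2 of 6 cortical and 4 of 7 fibroblast and endothelial genes differed below 0, with medians of 0.15 and -0.01. Tbata, the brightest of the cortical genes, read 10.01 and 9.70 against 10.40 and 10.26. Lum, of the fibroblast and endothelial list, read 4.91 and 5.89 against 6.71 and 6.86.

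**Figure D2:**
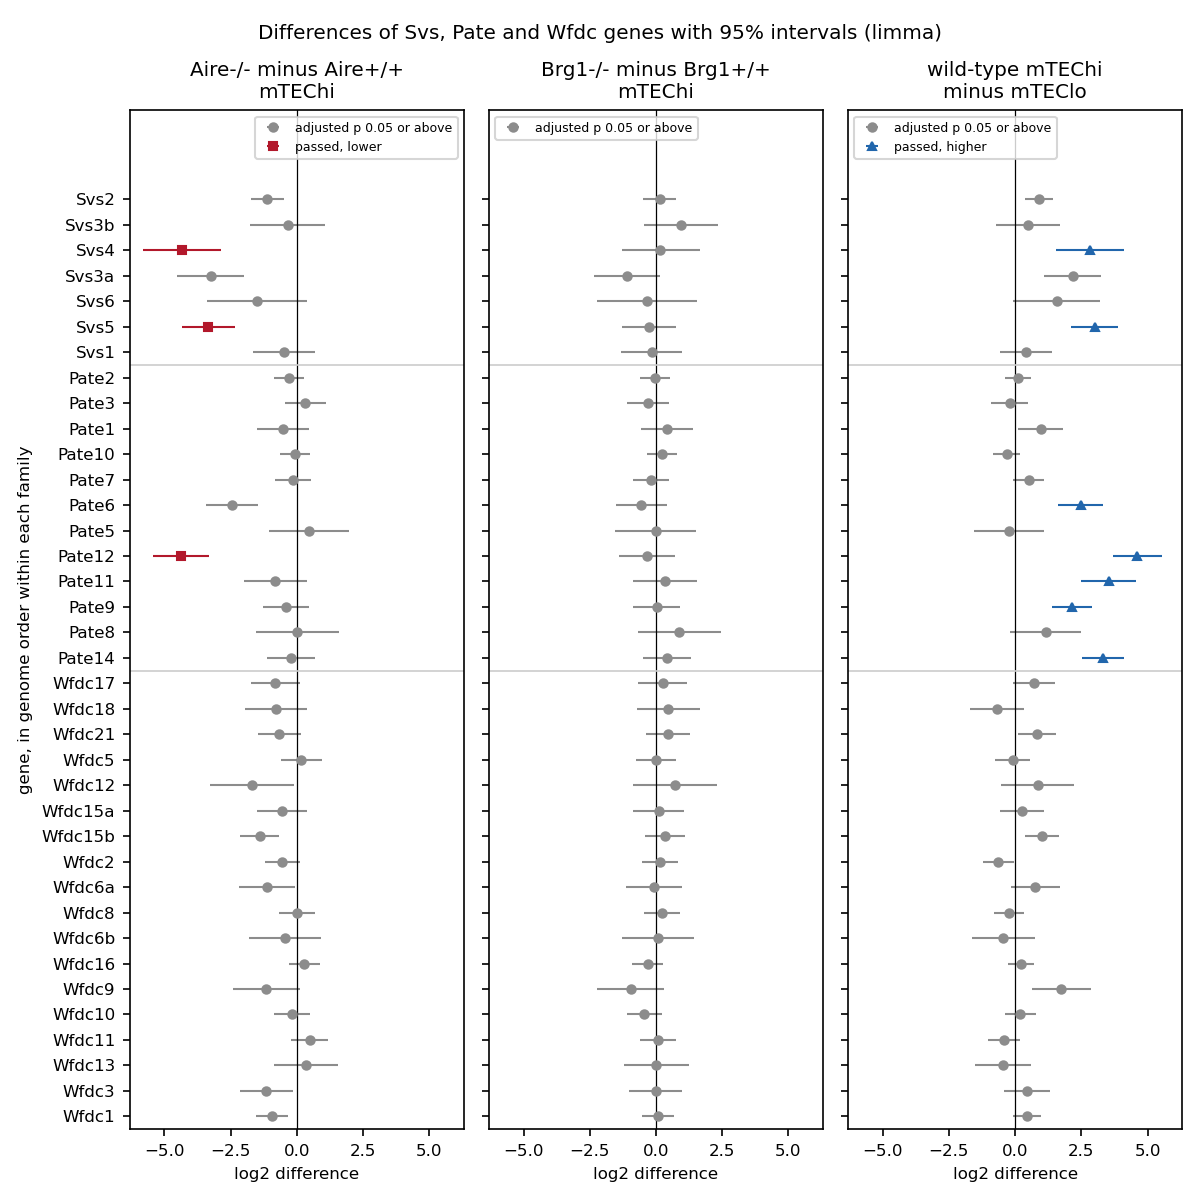
Log2 differences with 95% limma intervals (horizontal axis) of the 37 genes (rows, in genome order within each family) for Aire-/- minus Aire+/+ in mTEChi, Brg1-/- minus Brg1+/+ in mTEChi and wild-type mTEChi minus mTEClo. Red squares and blue triangles passed an adjusted p of 0.05: 3 genes were lower without Aire, 0 changed without Brg1 and 7 were higher in wild-type mTEChi.

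The second comparison asked the same of Brg1. No member passed, and the 3 genes that fell without Aire read between 6.90 and 9.14 in Brg1-/- mTEChi. Svs4 read 9.21 and 7.47 with Brg1 and 9.14 and 7.89 without it, a difference of 0.17 (95% interval -1.30 to 1.65). Svs5 read 8.17 and 7.11 against 6.90 and 7.83, -0.28 (-1.29 to 0.74), and Pate12 read 9.32 and 8.68 against 8.73 and 8.59, -0.34 (-1.41 to 0.73). In all 3 genes the arrays of both genotypes overlapped. The lowest difference was that of Svs3a, which read 5.10 and 5.54 with Brg1 and 3.98 and 4.48 without it, -1.09 (95% interval -2.35 to 0.17, limma adjusted p = 1). The highest was that of its copy Svs3b, 0.93 (SE 0.601), where Brg1-/- replicate 1 read 5.90 and the other 3 arrays of the line's mTEChi read 3.73 to 4.21. With limma, 0 of 22154 genes (0%) passed for Brg1 in either direction, and at an unadjusted p under 0.05 there were 0 members among 301 genes (1.36%). Both Brg1-/- arrays lay below both Brg1+/+ arrays in 5 members (13.5%, against 9.62% of all genes) and above them in 2 (5.41%, against 9.77%). The median over members was 0.07, against 0.00 over all genes. The 9 thymocyte genes summed to 2300 on Brg1-/- replicate 2, against 642 to 713 on the other 3 mTEChi arrays of the line. Cd3d, Cd8b1 and Cd3g were the brightest of them on that array, at 10.12, 8.92 and 8.58. Cd4 and Rag2, at 5.29 and 3.58, were not at their highest there. Without Brg1, 2 of the 9 genes differed below 0, and the list median was 0.27. The part of thymocyte genes in these values was not tested.

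The difference between both effects was tested directly, as the Brg1 difference minus the Aire difference in mTEChi. It was 4.03 for Pate12 (SE 0.649, limma adjusted p = 0.113), 4.50 for Svs4 (SE 0.892, limma adjusted p = 0.219) and 3.06 for Svs5 (SE 0.613, limma adjusted p = 0.229). No member passed, where 30 of 22154 genes (0.135%) did, all higher; at an unadjusted p under 0.05 there were 9 members (24.3%, against 3.68% of all genes). The 95% intervals of the difference were 2.51 to 5.55 for Pate12, 2.42 to 6.59 for Svs4 and 1.63 to 4.50 for Svs5. The result changes with the replicate block, a fit that takes the replicate number within each line as a term: Pate12, Svs4 and Svs3a then passed (limma adjusted p = 0.00643, 0.0019 and 0.0366), among 201 of 22154 genes. The labels do not say that equal numbers mark paired samples.

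The third comparison described mTEChi against mTEClo in the wild types, with both lines averaged. Of the 37 members 7 were higher in mTEChi and 0 lower: Svs4, Svs5, Pate6, Pate9, Pate11, Pate12 and Pate14. Over all genes 427 (1.93%) were higher and 140 (0.632%) lower, 2.56% in all. At an unadjusted p under 0.05 there were 14 members (37.8%), against 12.8% of all genes. Pate12 read 5.30 and 3.59 in Aire+/+ and Brg1+/+ mTEClo, and it was higher in the 4 wild-type mTEChi arrays by 4.62 (SE 0.398, n = 4 and 2, limma adjusted p = 0.00275), or 24.5-fold. Pate11 read 6.44 and 5.19 in wild-type mTEClo and 8.68 to 10.10 in wild-type mTEChi, a difference of 3.54 (SE 0.445, limma adjusted p = 0.0104). Pate14 read 7.55 and 7.21 against 10.35 to 11.09, a difference of 3.32 (SE 0.339, limma adjusted p = 0.00499). For all 3 genes every mTEChi array lay above both mTEClo arrays.

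Svs5 read 4.35 and 5.06 in wild-type mTEClo and 7.11 to 8.17 in mTEChi, a difference of 3.0 (SE 0.376, limma adjusted p = 0.0104). Svs4 read 5.44 and 5.87 against 7.47 to 9.21, a difference of 2.83 (SE 0.546, limma adjusted p = 0.0439). Pate6 differed by 2.47 (SE 0.361, limma adjusted p = 0.0157) and Pate9, which read 2.58 and 3.09 in mTEClo and 4.80 to 5.34 in mTEChi, by 2.15 (SE 0.324, limma adjusted p = 0.0176). Svs3a differed by 2.17 (SE 0.466, limma adjusted p = 0.0646) without passing. Each wild-type mTEClo group is 1 array, whose spread was taken to be that of the mTEChi arrays. Without the Aire+/+ mTEClo array 2 members passed, Pate12 and Pate14, and without the Brg1+/+ mTEClo array 3 passed, Pate12, Pate14 and Svs5. Svs4 also missed the threshold without Aire+/+ mTEChi replicate 1 or 2 or Brg1+/+ mTEChi replicate 1, Pate9 without Aire+/+ mTEChi replicate 1, and Pate6 without Aire+/+ mTEChi replicate 2. Svs4 further missed it with 16 added to each intensity, in a fit of the compared arrays only and with a trended, robust prior (limma adjusted p = 0.0722, 0.0901 and 0.0505), and Pate9 with 16 added (0.0655). Both mTEClo arrays carry replicate number 1. Against the mTEChi arrays of that number alone, Pate12 differed by 3.14 in the Aire line and 5.73 in the Brg1 line, Pate14 by 2.96 and 3.14, and Svs4 by 3.40 and 3.34.

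None of the Wfdc genes passed between mTEChi and mTEClo. The largest differences were 1.74 for Wfdc9 (SE 0.471, limma adjusted p = 0.137) and 1.02 for Wfdc15b (SE 0.277, limma adjusted p = 0.139). The lowest was that of Wfdc18, a gene known from mammary gland, at -0.69, and Wfdc2 was the 1 member whose mTEChi arrays all lay below both mTEClo arrays, 7.45 to 7.95 against 8.07 and 8.69 (difference -0.63, SE 0.246, limma adjusted p = 0.333). Wfdc21 read 11.22 to 11.99 in wild-type mTEChi and 10.75 and 10.94 in mTEClo, a difference of 0.82 (SE 0.304, limma adjusted p = 0.308). The family medians were 1.57 for Svs, 1.06 for Pate and 0.24 for Wfdc genes, against -0.10 over all genes. In 18 members (48.6%) every mTEChi array lay above both mTEClo arrays, against 11.4% of all genes, and in 1 (2.70%) below, against 17.7%. The thymocyte sum was 490 to 1260 on these mTEChi arrays and 340 to 399 on the mTEClo arrays, and the sum of dendritic cell, macrophage and B cell genes was 762 to 1300 against 576 and 631. The fibroblast and endothelial sum went the other way, 260 to 320 against 392 and 378. None of these 3 sums overlapped, and their part in these differences was not tested. In the dendritic cell, macrophage and B cell list 2 of 7 genes differed below 0, and the median was 0.04. Its brightest gene, Lyz2, read 9.15 to 10.08 in wild-type mTEChi and 8.55 and 8.66 in mTEClo. Ptprc went the other way, 4.89 to 5.25 against 5.81 and 6.07.

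**Figure D3:**
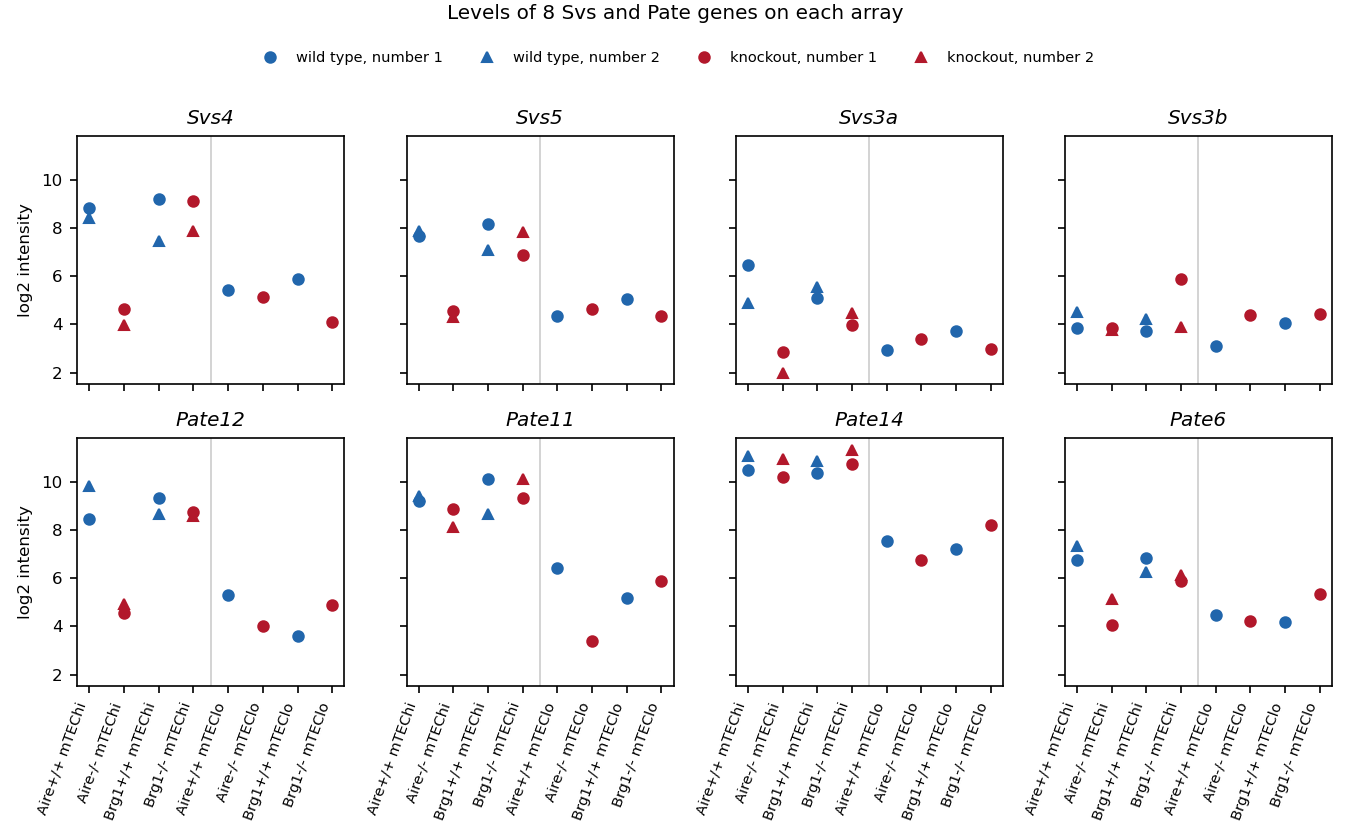
Log2 intensity (vertical axis) of 8 Svs and Pate genes in each of the 8 groups (horizontal axis), 1 point per array, with circles for replicate number 1 and triangles for number 2, blue for wild types and red for knockouts. Svs4, Svs5 and Pate12 drop to between 3.96 and 4.94 on the Aire-/- mTEChi arrays, where Pate11 reads 8.89 and 8.13, below its 9.21 and 9.42 with Aire, and Pate14 reads 10.19 and 10.97.

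The 3 members lower without Aire were all among the 7 higher in wild-type mTEChi. Both comparisons share the Aire+/+ mTEChi arrays, and the same overlap was not counted over all genes. The differences between mTEChi and mTEClo within Aire-/- cells are given for all 7. Pate11 in Aire-/- mTEChi was 5.13 above its Aire-/- mTEClo array, which read 3.38, and Pate14 was 3.82 above and Pate9 1.82 above theirs. Pate6 was 0.39 above its mTEClo array, against 2.58 in Aire+/+ cells. Pate12, Svs4 and Svs5 in Aire-/- mTEChi differed from Aire-/- mTEClo by 0.75, -0.82 and -0.20, against 3.82, 3.19 and 3.42 in Aire+/+ cells. In Brg1-/- cells the same differences were 3.76, 4.42 and 3.01. These values rest on 1 mTEClo array each and were not tested. Of the 37 members 5 (13.5%) were at least 2-fold higher in Aire-/- mTEChi than in the Aire-/- mTEClo array, against 4.09% of all genes, and 14 (37.8%) in Brg1-/- cells, against 4.78%.

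Within mTEClo each knockout has 1 array and its wild type 1 array, so the differences have no replicate check. In Aire-/- mTEClo 5 members (13.5%) were at least 2-fold lower than in Aire+/+ mTEClo, against 1.57% of all genes, and 1 (2.70%) was at least 2-fold higher, against 0.587%. The 5 were Pate11, which read 6.44 in Aire+/+ and 3.38 in Aire-/- mTEClo (-3.06), Wfdc15b (-1.69), Pate12 (-1.29), Svs6 (-1.19) and Svs1 (-1.08), and the 1 was Svs3b (1.28). In Brg1-/- mTEClo Svs4 was lower, 4.09 against 5.87 (-1.78), the 1 member at least 2-fold lower (2.70%, against 1.27% of all genes). Wfdc12 (1.80), Pate12 (1.31), Pate6 (1.17) and Pate14 (1.01) were at least 2-fold higher (10.8%, against 1.47%).

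In mTEClo, in the order Aire+/+, Aire-/-, Brg1+/+ and Brg1-/-, Svs4 read 5.44, 5.12, 5.87 and 4.09, and Svs5 4.35, 4.63, 5.06 and 4.35. Svs3a read 2.94, 3.40, 3.71 and 2.99 there, and Pate12 5.30, 4.01, 3.59 and 4.90. On these mTEClo arrays Svs4, Svs5 and Pate12 spanned values that overlap those of Aire-/- mTEChi. Pate11 read 6.44, 3.38, 5.19 and 5.87, Pate14 7.55, 6.76, 7.21 and 8.22, and Pate6 4.48, 4.21, 4.19 and 5.36. Pate9 read 2.58, 2.94, 3.09 and 2.99 in mTEClo, 5.34 and 4.98 in Aire+/+, 5.24 and 4.28 in Aire-/-, 4.81 and 4.80 in Brg1+/+ and 4.53 and 5.11 in Brg1-/- mTEChi. All 8 mTEChi arrays of Pate9, Pate11 and Pate14 lay above all 4 mTEClo arrays. The same held for Pate8, with a lowest mTEChi value of 4.93 against a highest mTEClo value of 4.71, and for Pate1, 5.52 against 5.44. How many of all genes share this pattern was not counted, so it is not shown to be particular to these genes. Between the wild-type arrays alone, every mTEChi array lay above both mTEClo arrays in 11.4% of all genes and 48.6% of the members.

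In the Brg1 line, Pate11 read 10.10 and 8.68 with Brg1 and 9.34 and 10.11 without it in mTEChi, Pate14 10.35 and 10.86 against 10.73 and 11.34, and Pate6 6.83 and 6.26 against 5.88 and 6.12. Of these genes Pate6 alone had arrays that did not overlap. Wfdc12 read 9.01 and 7.98 with Brg1 and 9.61 and 8.82 without it, and 8.18, 8.21, 7.47 and 9.27 in mTEClo in the order above. Wfdc15b read 8.42 and 7.53 against 8.25 and 8.36 in the Brg1 line, and 7.24, 5.55, 6.90 and 7.06 in mTEClo, where the Aire-/- array was the lowest. Wfdc9 read 7.53 and 6.80 against 5.76 and 6.64, without overlap, and 5.17, 5.53, 5.15 and 5.04 in mTEClo.

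Replicate numbers marked a difference of their own. In all 4 mTEChi groups 13 members (35.1%) read higher on the array numbered 1 and 4 (10.8%) on the array numbered 2, close to or below the 32.1% and 18.3% of all genes. The 13 were 1 of 7 Svs, 3 of 12 Pate and 9 of 18 Wfdc genes, and no family was tested against all genes here. Wfdc13, for example, read 0.76, 0.95, 0.98 and 0.97 higher on number 1 in Aire+/+, Aire-/-, Brg1+/+ and Brg1-/- mTEChi, and Wfdc12 read 0.80, 1.98, 1.03 and 0.79 higher. Pate14 read 0.51 to 0.78 lower on number 1 in every group.

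Lists of related genes outside the members are given by their counts, beside the 0.772% of all genes lower without Aire and the 1.93% higher in wild-type mTEChi. The lists were drawn up with earlier results of these data known, so their counts are descriptive and no independent test. Of 34 other measured genes of epididymal secretion 3 fell without Aire: the epididymal lipocalins Lcn8 (-4.59, SE 0.342, limma adjusted p = 0.00218) and Lcn6 (-2.41, SE 0.302, limma adjusted p = 0.0155) and the cystatin Cst12 (-4.35, SE 0.586, limma adjusted p = 0.0219). The list median was -0.32. Of 18 other seminal vesicle, prostate and coagulating gland genes 2 fell, the beta-defensin Defb50 (-5.37, SE 0.353, limma adjusted p = 0.00125) and Sbpl, a gene related to spermine-binding protein (-2.29, SE 0.356, limma adjusted p = 0.0398), with a list median of -0.68.

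Of 11 other WAP domain or Kunitz inhibitor genes 1 fell, the elastase inhibitor Slpi, which is the neighbour of Svs5. It read 10.34 and 9.51 with Aire and 7.36 and 7.32 without it in mTEChi (-2.58, SE 0.418, limma adjusted p = 0.0468), and 10.32 and 9.46 against 10.06 and 9.37 in the Brg1 line. The median of that list was -0.57. Of 38 other Ly6/uPAR genes 6 fell, among them Ly6g (-5.33), Slurp2 (-2.61), Psca (-3.37) and Ly6c2 (-3.21), with a list median of -0.23. No gene of the 4 lists rose without Aire, and 0 passed without Brg1. Higher in wild-type mTEChi than in mTEClo were 7, 1, 1 and 4 genes of these lists, in the same order, and 1 Ly6/uPAR gene was lower.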

How the data were processed

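The deposited table holds 1 linear intensity for each of 33732 probe sets on 12 arrays; per the submitters' processing notes the authors used RMA, with the Affymetrix Expression Console, and the Transcriptome Analysis Console (versions and joint normalization not given in the sources used here). Each deposited value equals 2 raised to a number with 2 decimals. No detection p was used, so background level is unknown. Folds of dim genes may be compressed, which was not measured.

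Values were taken to log2 with no pseudocount. Through the platform annotation 23491 probe sets had 1 symbol, 1811 several and 8430 none; the brightest per symbol left 22154 genes. All 37 members matched RefSeq (GRCm38.p6) by Entrez identifier, and 32 had a promoter entry; for several starts the first listed was used. R 4.3.3 and limma 3.58.1 (lmFit, eBayes, two-sided) fitted 8 group means to all arrays, with 4 residual and 3.46 prior degrees of freedom; intervals are 95%. SE is limma's moderated standard error. The steps were tested on simulated arrays. Values are given for every array of members called in any comparison, and of the 3 members with the largest Aire difference per family; others named were chosen after their values were seen. Up to 4 genes are named per related list. Members and lists were chosen with earlier results of these data known. Alternatives covered scaling, pseudocount, a dim-gene filter, probe sets, samples fitted, variance model, replicate block and left-out arrays. Upstream alignments used a match score of 1, mismatch -1, gap opening -2 and extension -0.5.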

Additional observations from a re-analysis of the deposited data

How the results depend on the processing

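Counts of members called are given for Aire loss, Brg1 loss, the Brg1 minus Aire difference and wild-type mTEChi against mTEClo, with 3, 0, 0 and 7 in the fit reported. Replicate numbers are shared by all groups but the labels do not say that they pair samples; differences between numbers correlated across genes with r of 0.552 to 0.657 between mTEChi groups. With the replicate block within each line the counts were 7, 0, 3 and 15, and calls over all 22154 genes rose too, from 176, 0, 30 and 567 to 531, 0, 201 and 1534. With 1 block common to both lines, chosen after seeing the data, they were 9, 0, 3 and 15, with 569, 0, 228 and 1757 over all genes. With 16 added to each intensity the Aire count was 1. Leaving out 1 array gave 0 to 2 for Aire, 0 for Brg1, 0 for the difference and 2 to 8 for mTEChi against mTEClo; the cause of these changes was not tested, beyond the loss of arrays itself. Centring, quantile normalization, the filter on dim genes, the mean of probe sets, the fit of the compared arrays only and the trended prior kept each count within 1.5 times.

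Signs turned only in differences that had not passed. Pate9 without Brg1 was -0.01 after quantile normalization (0.02 in the fit reported). Over single left-out arrays, the Aire difference ranged from -0.61 to 0.17 for Pate14 and from -0.88 to 0.08 for Pate9. The Brg1 difference ranged from -0.81 to 0.25 for Svs5, -0.70 to 1.04 for Svs4, -0.38 to 1.04 for Pate11, -0.11 to 0.78 for Wfdc15b and -0.27 to 0.31 for Pate9. Brg1 minus Aire ranged from -0.52 to 0.91 for Wfdc9 and -0.07 to 0.90 for Pate9. Unknown background limits what dim members can show.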

Other observations

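The probe set annotated to both Pate4 and Pate2, which belongs to no gene of the comparisons, read 6.35 and 6.68 in mTEChi with Aire and 2.32 and 2.70 without it. In the Brg1 line its mTEChi values were 5.53 and 5.73 with Brg1 and 4.03 and 6.62 without it. Its mTEClo values were 2.53 with and 3.0 without Aire, and 2.58 with and 2.51 without Brg1. The probe set of Pate2 alone read 3.92 to 4.73 on all 12 arrays. RefSeq lists Pate4 and Pate2 as neighbours, and Pate4 is also known as a seminal vesicle protein. Which of the 2 genes the shared probe set reads was not analysed here.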
